A study of Mus musculus with 11 samples.

Results

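The binding landscapes of the transcription factors CDX2 and HNF4A were compared in wild-type mouse villi, using every factor peak and every H3K4me2 nucleosome listed for wild-type libraries. These are 4 of the 11 samples of the study: CDX2 library 1 with 12121 peaks, CDX2 library 2 with 7441 peaks, HNF4A with 22376 peaks, and H3K4me2 with 250986 nucleosomes. All 41938 factor peaks entered, with no filter on score or width.

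Chromatin immunoprecipitation and sequencing (ChIP-seq) was done on epithelium released from the jejunum of wild-type mice by chelation with EDTA, and villi were held back on a filter that let crypts pass. The mice were on a 129xC57BL6 mixed background, with no treatment given in the labels. Libraries were built from pools of ChIP DNA, so 1 library is not 1 animal, and no label says whether the CDX2 libraries came from separate animals. CDX2 and HNF4A were each pulled down with a different antibody. The villus identity of the material was not checked against marker genes, because the lists hold positions of build mm9 and no gene annotation of that build was used.

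CDX2 is a homeodomain factor that sets and keeps the identity of the intestinal epithelium. HNF4A is a nuclear receptor that drives genes of lipid handling and of the mature enterocyte, the absorptive cell that makes up most of the villus. H3K4me2, dimethylation of lysine 4 on histone H3, lies on nucleosomes at promoters and enhancers. At an active enhancer a bound factor often sits in a gap between a pair of marked nucleosomes. Both factors are known to bind enhancers of villus cells.

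The lists differed in ways that touch every comparison below. Peaks had a median width of 570 bp in CDX2 library 1, 255 bp in library 2 and 304 bp for HNF4A. The median peak score was 70.4, 58.0 and 81.1 in that order, and the maxima were 933.2, 614.2 and 3100. No factor peak scored below 50. Peak score is the value the authors deposited, and what it stands for is not given in the sources used here. Reads per library are unknown. With 1 HNF4A library against 2 CDX2 libraries, an exact permutation test cannot give a p below 1 in 3, so no test between factors was run. Values are given per library, and the distance of HNF4A from each CDX2 library is set beside the distance between the CDX2 libraries. Intervals are exact (Clopper-Pearson for shares, Poisson for counts), at 95%, and cover counting error only.

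HNF4A peaks lay in H3K4me2-marked chromatin more often than the peaks of either CDX2 library. A peak was called marked where at least 1 nucleosome was centred within 1 kb of the peak centre. This held for 77.3% of HNF4A peaks (interval 76.8 to 77.9), 58.0% of CDX2 library 1 peaks (57.1 to 58.9) and 27.7% of CDX2 library 2 peaks (26.7 to 28.7). By comparison, 6.55% of the genome spanned by the lists lay that close to a nucleosome. All 3 lists were thus far above this share. HNF4A was 19.4 percentage points above library 1 and 49.7 above library 2. The CDX2 libraries themselves were 30.3 points apart, which is more than the step from library 1 to HNF4A.

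That spread between the CDX2 libraries went with peak width. Among peaks of 300 to 500 bp, a class chosen after seeing the data, 91.1% of 8517 HNF4A peaks were marked (90.5 to 91.7), against 37.7% of 4026 in library 1 (36.2 to 39.2) and 49.7% of 1887 in library 2 (47.4 to 51.9). The order of the CDX2 libraries turned there. Among peaks of 300 bp or less the shares were 61.1% of 10943 for HNF4A (60.2 to 62.0), 27.6% of 199 in library 1 (21.55 to 34.4) and 19.2% of 5446 in library 2 (18.1 to 20.2). In both width classes HNF4A lay farther from either CDX2 library, by 33.5 points or more, than the CDX2 libraries lay from each other (library 1 minus library 2: -11.95 points at 300 to 500 bp and 8.49 points at 300 bp or less).

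Cutting the lists to their highest-scoring peaks did not bring them together. At equal length each list was held to its 7441 highest-scoring peaks, which is the whole of library 2. The marked share was then 93.5% for HNF4A, 64.0% for library 1 and 27.7% for library 2. The share rose with score in each list, so this cut favoured HNF4A and library 1 and left library 2 as it was. Among the 3000 highest-scoring peaks the marked share was 95.5%, 73.4% and 39.4%, with library 2 again the least cut. In the plot of the marked share by score, all 3 lists ended higher than they began. From the lowest to the highest decile of score, HNF4A went from 59.8% to 96.0%, library 1 from 49.1% to 78.4% and library 2 from 19.2% to 67.1%. Library 2 stayed low over most of its range and climbed late, with 41.0% in the ninth decile.

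**Figure D1:**
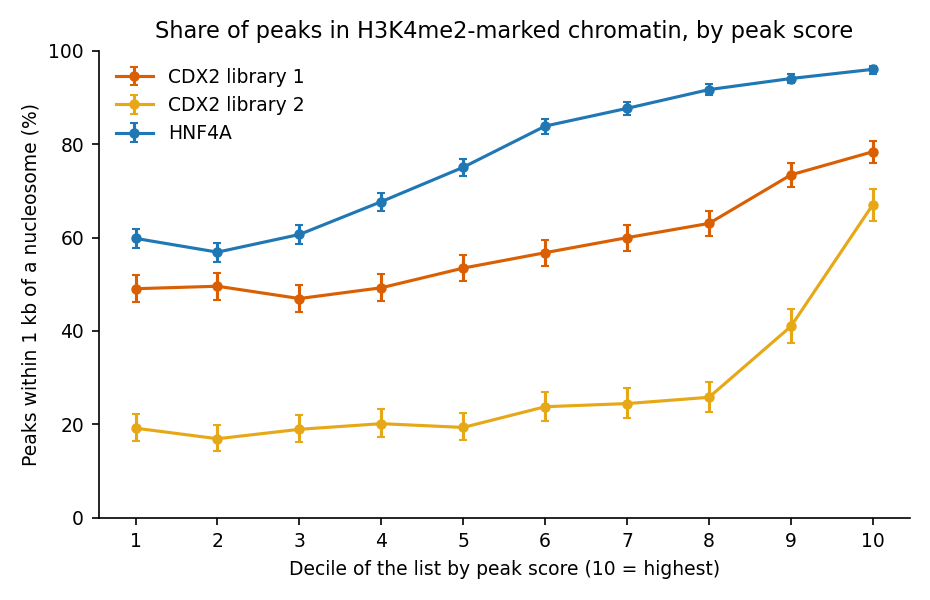
Share of peaks with an H3K4me2 nucleosome centred within 1 kb (vertical axis, percent) for each decile of a list ordered by peak score (horizontal axis, 10 = highest). Points are single libraries and bars are exact 95% intervals for counting error; in the lowest decile the lists stood at 59.8% (HNF4A), 49.1% (CDX2 library 1) and 19.2% (CDX2 library 2), and in the highest at 96.0%, 78.4% and 67.1%.

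At the same numeric score the CDX2 libraries differed mainly among weak peaks. Between scores of 50 and 60, 48.6% of 3600 library 1 peaks and 19.4% of 4189 library 2 peaks were marked, against 59.1% of 5604 HNF4A peaks. At 200 or more, the shares were 80.3% of 544 (76.7 to 83.6) and 83.8% of 68 (72.9 to 91.6), so the CDX2 libraries did not differ beyond counting error there. HNF4A stood above both in that range, with 95.4% of 3712 (94.7 to 96.0). A score need not mean the same in lists of different depth, so these values describe the lists.

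Nucleosome number followed the same order. Within 1 kb there were 3.19 nucleosomes per HNF4A peak (3.17 to 3.22), 2.27 per library 1 peak (2.24 to 2.30) and 0.950 per library 2 peak (0.928 to 0.973). Most of this spread came with the share of peaks that had any nucleosome at all. Counting marked peaks alone, the means were 4.13, 3.91 and 3.43. At least 4 nucleosomes surrounded 43.1% of HNF4A peaks, 30.3% of library 1 peaks and 11.9% of library 2 peaks. Far from marked chromatin the order turned around: the nearest nucleosome was over 50 kb away for 2.69% of HNF4A peaks (2.48 to 2.91), 12.6% of library 1 peaks (11.98 to 13.2) and 22.1% of library 2 peaks (21.2 to 23.1). The median distance to the nearest nucleosome was 141 bp, 221 bp and 8307 bp.

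Occupancy by the other factor and by the other CDX2 library divided the CDX2 peaks sharply. Library 1 peaks that overlapped an HNF4A peak by at least 1 bp were marked in 95.1% of 3194 cases (94.3 to 95.9), and those without HNF4A in 44.7% of 8927 (43.7 to 45.7). For library 2 the shares were 92.1% of 881 with HNF4A (90.1 to 93.9) and 19.02% of 6560 without (18.1 to 20.0). At CDX2 peaks with HNF4A, the marked share was thus higher than in the HNF4A list as a whole.

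The finer classes divided each CDX2 list further. Where both CDX2 libraries and HNF4A were present, the marked share was 95.5% of 682 library 1 peaks and 95.4% of 651 library 2 peaks. Where both CDX2 libraries were present without HNF4A, it was 60.6% of 902 and 61.9% of 945. In these shared classes the peaks of both libraries are the same sites, scored against the same nucleosomes, so their like shares do not compare the libraries. Of peaks called in 1 library only and without HNF4A, 42.9% of 8025 were marked in library 1 (41.8 to 44.0) and 11.8% of 5615 in library 2 (10.98 to 12.7). The latter class made up most of library 2.

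HNF4A peaks varied less. Without any CDX2 peak, 73.9% of 18676 were marked (73.3 to 74.5), against 95.9% of 656 with CDX2 in both libraries (94.1 to 97.3) and 95.4% of 2809 with CDX2 in library 1 only (94.6 to 96.2). With CDX2 in library 2 only, the share was 83.0% of 235 (77.6 to 87.6). HNF4A peaks without CDX2 were therefore marked more often than CDX2 peaks without HNF4A, also when the latter were called in both libraries. Wide peaks overlap others more easily, and the part of width in these classes was not tested.

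**Figure D2:**
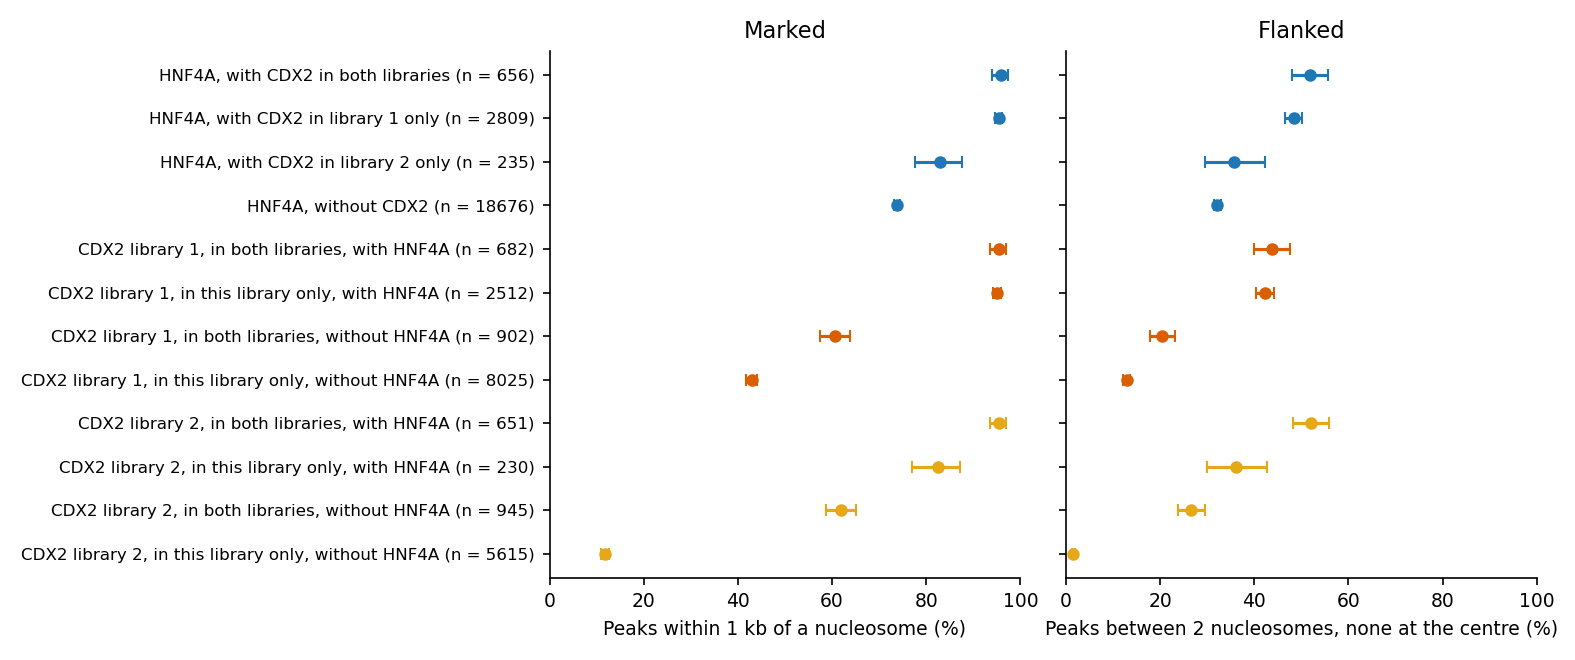
Share of peaks that were marked (left, percent) and share that sat between 2 nucleosomes with none at the centre (right, percent), for each list divided by overlap with the other factor and the other CDX2 library. Points are single libraries with exact 95% intervals; classes with both factors reached 82.6% to 95.9% marked, while CDX2 library 2 peaks called there only and without HNF4A had 11.8%.

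Around the peak centres, marked nucleosomes were arranged differently in the lists. The number of nucleosome centres per 100 peaks, in steps of 50 bp, was highest at 150 to 200 bp from the centre for HNF4A (30.1 per 100 peaks) and for CDX2 library 2 (9.21). For library 1 the highest step was 100 to 150 bp (17.4). Compared with the first 50 bp, the highest step held 1.94 times as many nucleosomes for HNF4A, 1.71 times for library 2 and 1.21 times for library 1. HNF4A and CDX2 library 2 thus had a clear dip at the centre, and library 1 had a shallow one.

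The dip was also measured as a ratio, the density of nucleosome centres within 75 bp divided by that at 150 to 350 bp, where 1 means no dip. It was 0.716 for HNF4A, 0.760 for library 2 and 0.938 for library 1. On this measure HNF4A was closer to CDX2 library 2 than the CDX2 libraries were to each other. The ratio depended on peak strength. Between scores of 50 and 60 it was 1.01 for HNF4A, 0.985 for library 2 and 1.02 for library 1. At 200 or more it was 0.568, 0.597 and 0.966. Strong HNF4A and strong library 2 peaks had the dip, weak peaks of the 3 lists had little or none, and library 1 peaks had little at the lowest and the highest scores.

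Width moved with this measure. In peaks of 300 to 500 bp the ratio was 0.590 for HNF4A, 0.697 for library 2 and 1.00 for library 1. In peaks of 300 bp or less it was 0.839 (10943 peaks), 0.815 (5446) and 0.840 (199), so the order of the factors did not hold there. For library 2, the dip was found in peaks also called in library 1, with 0.558 over 1596 peaks, and not over the 5845 peaks called there only taken as a whole, with 1.25. Of the latter, the 230 with HNF4A did have a dip, with 0.786, and the 5615 without HNF4A gave 1.50.

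**Figure D3:**
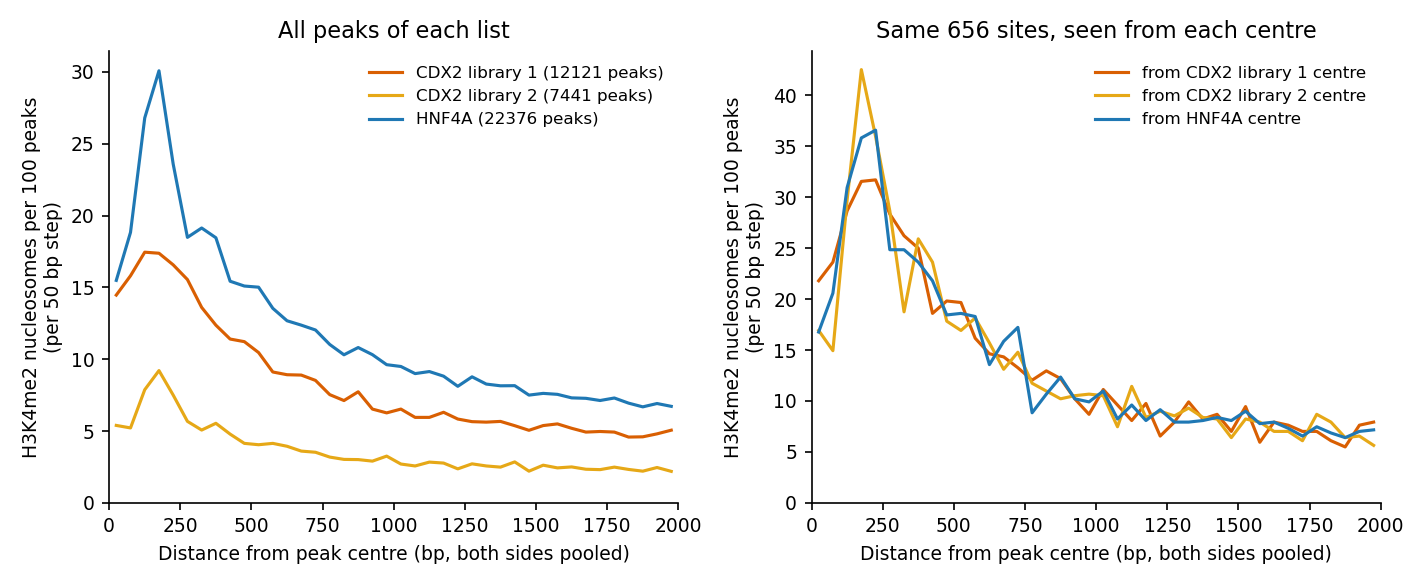
H3K4me2 nucleosome centres per 100 peaks in 50 bp steps (vertical axis) by distance from the peak centre (horizontal axis, bp, both sides pooled), for all peaks of each list (left) and for the 656 sites with HNF4A and both CDX2 libraries, read from each centre (right). Over all peaks HNF4A and CDX2 library 2 were highest at 150 to 200 bp, with 30.1 and 9.21; at the shared sites all 3 centres lay in a dip, with the highest step at 31.7 to 42.5 per 100 sites.

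At the same sites the factors could be compared without a difference in marking. HNF4A peaks overlapping a CDX2 peak of both libraries numbered 656, over 647 distinct library 1 peaks and 648 distinct library 2 peaks. Read from the HNF4A centre the ratio was 0.587, from the library 2 centre 0.539 and from the library 1 centre 0.793. At these sites HNF4A and CDX2 library 2 gave a dip of similar depth. CDX2 library 1, with a median width of 751 bp there against 330.5 bp for library 2 and 372.5 bp for HNF4A, gave a shallower one. The part of peak width in this difference was not tested.

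The share of single peaks with a nucleosome on each side also differed between the lists. A peak was called flanked where nucleosomes were centred on both sides between 75 and 500 bp and none was nearer. Flanked peaks made up 34.8% of the HNF4A list (34.2 to 35.5), 21.3% of library 1 (20.6 to 22.0) and 10.3% of library 2 (9.57 to 10.97). The nearer gap, 13.5 points from HNF4A to library 1, exceeded the 11.04 points between the CDX2 libraries. At equal list length, where library 2 kept all its peaks, the shares were 50.1%, 24.7% and 10.3%. At the 656 shared sites library 2 had the same share as HNF4A, with 51.8% flanked from either centre (47.9 to 55.7), and library 1 had 44.4% (40.5 to 48.3). A flanked peak is always marked, so the share over all peaks moves with the marked share. Among marked peaks of the whole lists, 7793 of 17306 were flanked for HNF4A, 2581 of 7029 in library 1 and 763 of 2059 in library 2. There the CDX2 libraries were nearly alike, with HNF4A above both.

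The spacing of the flanking nucleosomes was alike. In flanked peaks the distance between the nearest nucleosome on each side had a median of 350 bp for HNF4A and 360 bp for both CDX2 libraries, with interquartile ranges of 310 to 415, 300 to 430 and 315 to 425 bp.

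Over the 1 kb window, nucleosomes near factor peaks were close to the average (median) of the list in score. The nucleosome score is 10 times the −log10 of a p-value, per the file header, with a ceiling of 3250 that 3136 nucleosomes reached. Its median was 255.2 over the 62678 nucleosomes within 1 kb of an HNF4A peak, 241.6 over 26665 near library 1 and 215 over 6986 near library 2. All nucleosomes had a median of 230.7, and those near no factor peak 227.9. HNF4A was thus 13.6 above library 1, while the CDX2 libraries were 26.6 apart. Nearer the centres the lists parted: within 100 bp the medians were 296.8 for HNF4A, 281 for library 1 and 196.5 for library 2, so the first 2 were above the average of the list and library 2 below it. The low value of library 2 was limited to that step, which held 789 nucleosomes. At 100 to 200 bp its median was 241.6 and at 200 to 300 bp 232.15, against 272.6 in both steps for HNF4A.

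The highest nucleosome scores were less frequent near factor peaks than elsewhere. Of nucleosomes near neither factor, 1.44% reached the ceiling (1.39 to 1.50). The share was 0.758% near HNF4A (0.691 to 0.829), 0.694% near library 1 (0.598 to 0.801) and 0.601% near library 2 (0.434 to 0.812). Dividing all nucleosomes into score deciles, 20.7% of the lowest decile lay near HNF4A, 28.2% of the eighth and 21.0% of the highest. CDX2 library 1 had the same humped shape, with 9.36%, 11.2% and 8.64%.

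CDX2 and HNF4A peaks that overlapped were usually centred within a nucleosome's length of each other. The distance between centres had a median of 103 bp for 3194 pairs of library 1 with HNF4A and 62 bp for 881 pairs of library 2 with HNF4A. The distance between the CDX2 libraries, 66 bp over 1584 pairs, was taken as a yardstick for 1 factor, though it pairs lists of unlike width. Over all pairs library 2 was no farther from HNF4A than from the other CDX2 library. Within 100 bp lay 48.8% of library 1 to HNF4A pairs, 69.7% of library 2 to HNF4A pairs and 67.7% of pairs between the CDX2 libraries.

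Width again went with the offset. Where both peaks were 300 to 500 bp wide, the medians were 57.5 bp over 230 pairs, 57 bp over 229 pairs and 40 bp over 128 pairs between the CDX2 libraries. In that class the CDX2 to HNF4A distances of both libraries were alike, and both were above the CDX2 to CDX2 distance. Where both peaks were 300 bp or less, the medians were 28.5 bp over 8 pairs, 42.5 bp over 164 pairs and 26.5 bp over 18 pairs between the CDX2 libraries. The quartiles were 19 to 70 bp for library 2 with HNF4A and 15.25 to 39 bp between the CDX2 libraries. With 8 and 18 pairs, neither library 1 with HNF4A nor the yardstick had enough pairs for a comparison in this class.

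**Figure D4:**
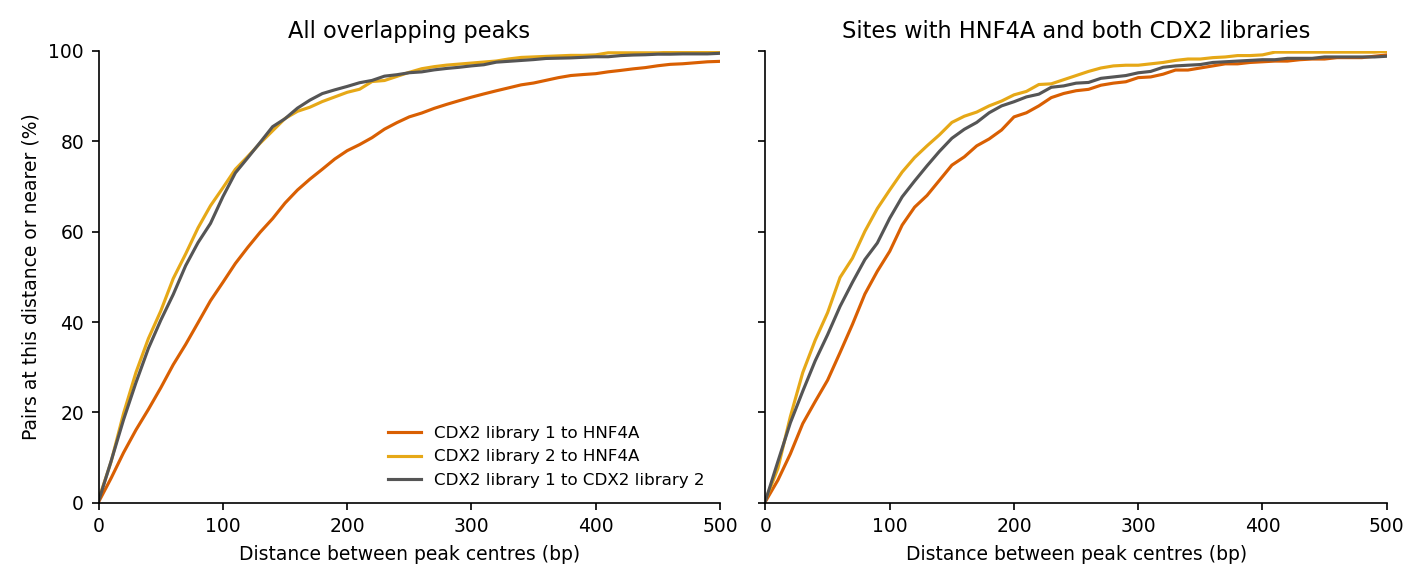
Share of overlapping peak pairs (vertical axis, percent) whose centres lay at a given distance or nearer (horizontal axis, bp), for all pairs (left) and for the 656 sites with HNF4A and both CDX2 libraries (right). CDX2 library 2 to HNF4A (median 62 bp) and CDX2 library 1 to CDX2 library 2 (66 bp) ran close together on the left, with CDX2 library 1 to HNF4A (103 bp) farther out.

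At the 656 shared sites the medians were 86 bp from library 1 to HNF4A, 62 bp from library 2 to HNF4A and 72.5 bp between the CDX2 libraries. The nearest of the 3 pairs of centres was library 2 with HNF4A at 43.9% of sites (40.1 to 47.8), the CDX2 libraries at 34.8% (31.1 to 38.5) and library 1 with HNF4A at 20.7% (17.7 to 24.0). The CDX2 centres did not pair up with each other in preference to HNF4A at these sites. Neither did one factor lie outside the other: of 647 sites with 3 distinct positions, HNF4A was in the middle at 30.4%, library 1 at 28.1% and library 2 at 41.4%. Widths were unlike there, with medians of 751 bp for library 1, 330.5 bp for library 2 and 372.5 bp for HNF4A. Among all pairs of 300 to 500 bp the CDX2 libraries were the nearest, with 40 bp against 57.5 and 57 bp to HNF4A. The part of width in the order at the shared sites was not tested. Where the CDX2 centres were within 50 bp of each other (244 sites), their mean was a median of 60 bp from HNF4A, and over 100 bp from it at 23.4% (18.2 to 29.2).

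Some overlapping peaks were divided by a marked nucleosome. A nucleosome centre lay between the centres of the factors in 29.5% of library 1 to HNF4A pairs (27.9 to 31.1) and 16.01% of library 2 to HNF4A pairs (13.6 to 18.6). Between the CDX2 libraries it did so in 13.6% of pairs (11.98 to 15.4). Among pairs over 100 bp apart the shares were 50.2%, 40.8% (34.9 to 47.0) and 32.3% (28.3 to 36.5). Pairs of the same factor were thus divided too, though library 1 with HNF4A more often. Centres that lie farther apart leave more room for a nucleosome, and the pairs were not matched for distance. Over 250 bp apart were 467 of 3194 library 1 to HNF4A pairs, against 77 of 1584 pairs between the CDX2 libraries. The part of distance in these shares was not tested.

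Both CDX2 centres lay over 250 bp from HNF4A at 14 of the 656 sites. The one with the highest HNF4A score was the HNF4A peak at chr8:126344195-126345027 (score 995.3), with CDX2 centres 580 and 280 bp away and 8 nucleosomes within 1 kb. Next was chr7:106363183-106364363 (991.6), with 298 and 268 bp and 8 nucleosomes. The third, chr4:139184322-139185443 (603.7), had 346 and 275 bp and 2 nucleosomes.

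Most CDX2 peaks had no HNF4A peak close by. An HNF4A centre lay within 100 bp of 12.8% of library 1 peaks and 8.24% of library 2 peaks. It was over 50 kb away, or absent from the chromosome, for 28.0% and 45.7%. Counted by the nearest HNF4A centre, both libraries had the most peaks per 100 bp of distance in the nearest 100 bp, and fewer in each step out to 50 kb. Each CDX2 peak enters once, at its nearest HNF4A centre, so a fall with distance is partly fixed by this measure. No expected fall was computed.

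Single sites showed the range of these patterns. The highest-scoring CDX2 peak of library 1, chr12:16758955-16759834, scored 933.2 and 429.9 in the CDX2 libraries, had no HNF4A peak and had 7 nucleosomes within 1 kb. Its second, chr13:59662455-59663586, scored 787.1 with no nucleosome within 1 kb (the nearest was 3824 bp away), no HNF4A and no library 2 peak. Next came chr5:99439370-99440648, which scored 767.2, was flanked by nucleosomes 215 bp apart and had an HNF4A peak of score 96.2 centred 452 bp away. Strong CDX2 signal was thus present with and without marked chromatin.

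In library 2 the highest peak, chr9:121456520-121457024, scored 614.2, with 637.7 in library 1 at a centre 49 bp away, and was flanked by nucleosomes 500 bp apart. The next ones, chr9:44689408-44689728 (476.7) and chr4:108068518-108068894 (471), were called in library 1 as well, at 26 and 14 bp, and had 4 and 1 nucleosomes. None of the 3 had an HNF4A peak. The strongest unmarked peaks of library 2 were also in library 1: chr3:126581188-126581603 scored 422.8 and 114.6 in libraries 2 and 1, with the nearest nucleosome 106849 bp away. At chr6:149405796-149406275 the scores were 298.6 and 733.8, with 47314 bp. Both are thus CDX2 peaks of both libraries far from any marked nucleosome. In library 1 the second-strongest unmarked peak, chr14:42299037-42304389, was 5353 bp wide and scored 762.9 in that library alone.

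The highest HNF4A peaks all lay in marked chromatin without CDX2. They were chr16:76453883-76454588 (score 3100, 6 nucleosomes, flanked at 460 bp), chr6:83371728-83372778 (2764, 7 nucleosomes) and chr3:87312066-87313498 (2726, 5 nucleosomes, flanked at 305 bp). The strongest unmarked HNF4A peaks were chr4:132291840-132292472 (1333) and chr16:96041701-96042139 (1191), each with a nucleosome less than 4 kb off, at 3834 and 3797 bp. The strongest unmarked peak of CDX2 library 1 was as near to a nucleosome as these, and the strongest unmarked peaks of library 2 were farther off.

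Of the 5 strongest HNF4A peaks with CDX2 in both libraries, 4 were flanked. At chr16:58519768-58520385 HNF4A scored 1684 and the CDX2 centres were 54 and 11 bp away, inside a gap of 455 bp. At chr14:73774030-73774675 HNF4A scored 1203, the CDX2 centres were 62 and 30 bp away and the gap was 355 bp. At chr3:157656292-157656821 HNF4A scored 1358, the CDX2 centres were 178 and 95 bp away and the gap was 385 bp. CDX2 scores at these 3 sites were between 51.9 and 133.4. The site without flanks, chr4:148211651-148213123 (HNF4A 1732), had a nucleosome 15 bp from the centre.

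HNF4A peaks were more clustered along the chromosomes than CDX2 peaks. At equal list length, another peak of the same list lay within 10 kb of 41.0% of HNF4A peaks (39.9 to 42.1), 25.3% of library 1 peaks (24.3 to 26.3) and 10.3% of library 2 peaks (9.65 to 11.05). HNF4A was 15.7 points above library 1, about as far as the 15.0 points between the CDX2 libraries. Among the 3000 highest-scoring peaks the shares were 23.1%, 15.6% and 6.77%.

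Marking and clustering went together. Among marked peaks only, with 2059 of each list, the clustered shares were 18.7% for HNF4A (17.1 to 20.5), 13.1% for library 1 (11.7 to 14.6) and 11.5% for library 2 (10.2 to 12.97). There the CDX2 libraries differed little and HNF4A remained above both. Clustered peaks were marked more often than lone ones in each list: 75.2% against 60.2% in library 1, 43.0% against 25.9% in library 2 and 95.2% against 92.3% for HNF4A.

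Runs of peaks no more than 10 kb apart differed in kind. As deposited, 525 runs of at least 5 peaks were found for HNF4A, 58 for library 1 and 0 for library 2. These numbers move with list length. At equal list length they were 34, 19 and 0, and among the 3000 highest-scoring peaks 1, 4 and 0. The run with the most peaks was in library 1 at each of these lengths, with 20, 17 and 9 peaks against 15, 10 and 5 for HNF4A. Of the 58 library 1 runs as deposited, 20 (34.5%, 22.5 to 48.1) held no marked peak, against 2 of the 525 HNF4A runs (0.381%, 0.0462 to 1.37). Those 20 runs held 145 library 1 peaks, and 1 run had an HNF4A overlap. The longest was chr13:65551606-65618196, with 20 library 1 peaks over 66.6 kb, up to a score of 576.9, and no nucleosome, HNF4A peak or library 2 peak. The next was chr12:18056155-18112329, with 12 library 1 peaks and again none of the others.

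HNF4A runs were of another make. The longest, chr3:129250831-129299027, held 15 HNF4A peaks up to a score of 1483 and 40 nucleosomes, with 3 and 2 CDX2 peaks in libraries 1 and 2. Next was chr3:122563897-122601428, with 14 HNF4A peaks, 52 nucleosomes and 4 and 1 CDX2 peaks. In library 2 the longest runs had 4 peaks. One, chr11:87503034-87523416, also held 4 library 1 peaks, 5 HNF4A peaks and 27 nucleosomes, and the other, chr1:85273487-85291399, held none of these.

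CDX2 was met more often in longer HNF4A runs. A library 1 peak overlapped an HNF4A peak in 10.3% of 9475 lone HNF4A peaks, 27.0% of 2476 pairs, 47.1% of 1412 runs of 3 to 4 and 69.7% of 525 runs of 5 or more. Counted per HNF4A peak, which takes away the greater number of peaks in a long run, the shares were 10.3%, 16.4%, 20.5% and 21.8%. For library 2 the shares per peak were 2.98%, 4.16%, 5.22% and 4.85%. HNF4A peaks in runs were thus overlapped by CDX2 more often than lone ones.

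Over the chromosomes, HNF4A peaks were spread like the H3K4me2 nucleosomes and CDX2 peaks were not. Spread was compared by the dissimilarity index, the percent of peaks that would have to change chromosome for one list to match the other. From the nucleosomes it was 2.35% for HNF4A, 7.62% for library 1 and 8.34% for library 2. The CDX2 libraries differed from each other by 3.49%, and from HNF4A by 5.91% and 6.63%. At equal length the values from the nucleosomes were 2.74%, 7.15% and 8.34%. With marked peaks only they were 1.99%, 6.65% and 5.70%, over 17306, 7029 and 2059 peaks. Counting error raises this index in short lists, and marked lists were not brought to equal length. Library 1 peaks lying in marked chromatin were thus also spread unlike the mark. For library 2, the part of list length in its value was not tested.

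Chromosome 11, the richest in nucleosomes per Mb among the autosomes, showed it most. It held 8.09% of nucleosomes and 7.80% of HNF4A peaks (7.45 to 8.16), but 5.81% of library 1 peaks (5.40 to 6.24) and 5.62% of library 2 peaks (5.11 to 6.17). HNF4A lay beyond both CDX2 libraries, by more than these differed, on 10 of 19 autosomes. It was above them on chromosomes 2, 4, 11 and 19 and below them on chromosomes 3, 6, 8, 12, 14 and 18. This rule can be met by chance, and the number expected was not computed. The HNF4A interval lay apart from those of both CDX2 libraries on chromosomes 4, 11, 12 and 19. On chromosomes 2, 3, 6, 8, 14 and 18 it overlapped the interval of a CDX2 library. Peak density varied 2.05-fold over the autosomes for HNF4A, from 7.01 per Mb on chromosome 14 to 14.3 on chromosome 11. For CDX2 it varied 1.34-fold in library 1 and 1.43-fold in library 2. The density of CDX2 peaks thus varied less between autosomes than that of HNF4A peaks. This ratio does not describe the spread of peaks within a chromosome.

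Both factors were thin on chromosome X relative to the mark. It held 1.89% of nucleosomes, 0.773% of HNF4A peaks (0.663 to 0.897), 0.899% of library 1 peaks (0.739 to 1.08) and 0.417% of library 2 peaks (0.283 to 0.591). Chromosome Y had 1 HNF4A peak, 2 library 1 peaks and 17 library 2 peaks.

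**Figure D5:**
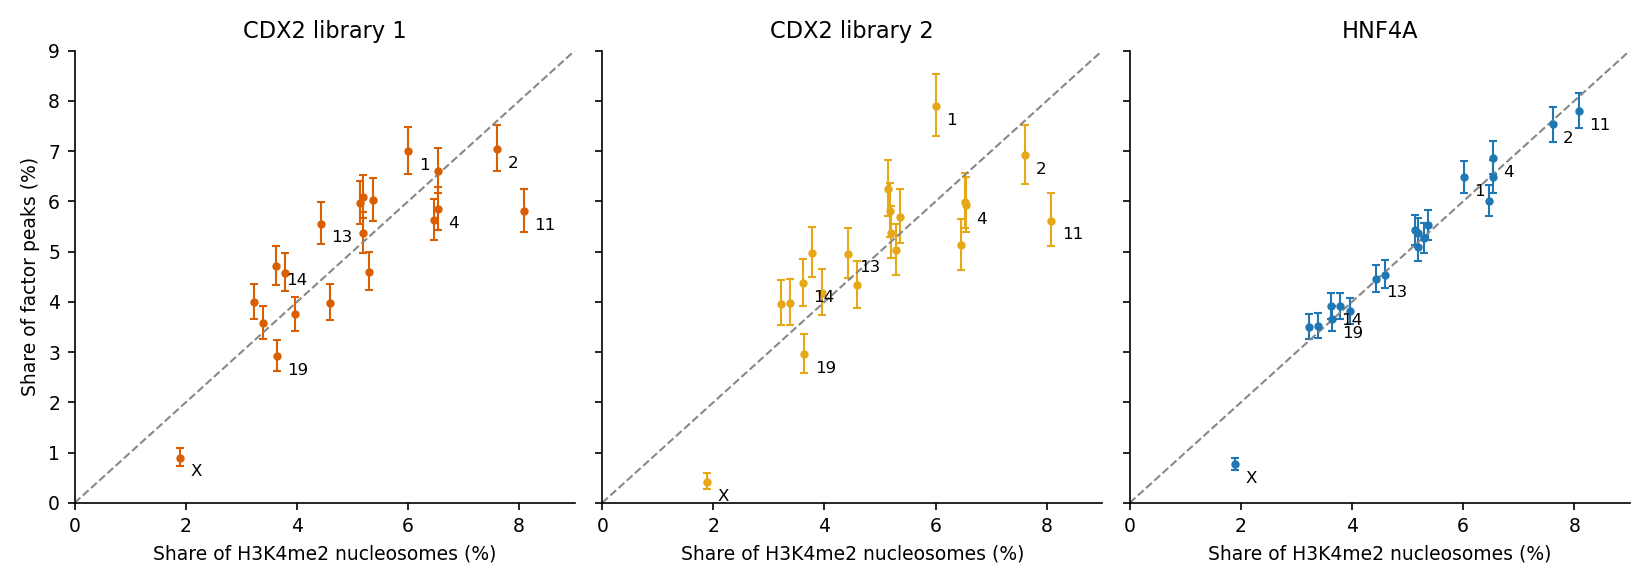
Share of a list's peaks on each chromosome (vertical axis, percent) against the share of H3K4me2 nucleosomes there (horizontal axis, percent), 1 panel per library, with exact 95% intervals for counting error and a dashed line of equal shares. HNF4A chromosomes lay near the line apart from X; chromosome 11 was below it in both CDX2 libraries, at 5.81% and 5.62% against 8.09% of nucleosomes.

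Seen from the mark, HNF4A occupied more of the H3K4me2 landscape than CDX2. Nucleosomes with centres no more than 500 bp apart were joined into 76542 islands. A peak centre lay in 13.9% of islands for HNF4A (13.7 to 14.1), 6.04% for library 1 (5.88 to 6.21) and 1.58% for library 2 (1.49 to 1.67). HNF4A was 7.85 points above library 1, more than the 4.47 points between the CDX2 libraries, but its list was also the longest. At equal length the gaps were 2.22 and 2.64 points, so HNF4A no longer stood farther off than the CDX2 libraries from each other. Islands with neither factor made up 82.8% of all.

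Large islands held factors far more often than small ones. Of 27457 single nucleosomes, 1.22% held an HNF4A centre, 0.747% a library 1 centre and 0.295% a library 2 centre. Of 894 islands of 16 or more nucleosomes the shares were 65.1% (61.9 to 68.2), 29.2% (26.2 to 32.3) and 5.82% (4.37 to 7.56), and 27.7% held neither factor. Per Mb of island, HNF4A had 113 centres in single nucleosomes, 326 in islands of 2 to 3 nucleosomes and 231 in these large islands. From islands of 2 to 3 to the largest, the share thus rose with island length and not with density. From single nucleosomes to islands of 2 to 3, density rose too. Both CDX2 libraries were densest in islands of 2 to 3 nucleosomes as well, with 132.6 and 37.1 centres per Mb. Single nucleosomes had 68.7 and 27.2, and the largest islands 71.8 and 12.7.

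The largest islands were occupied unequally. The first, chr2:164255892-164269251, had 58 nucleosomes over 13.4 kb, with 3 HNF4A peaks and 3 peaks of CDX2 library 1. At chr7:86979252-86993321 there were 56 nucleosomes and 2 HNF4A peaks but no CDX2 peak. At chr11:6122952-6134371 there were 48 nucleosomes, 3 HNF4A peaks and 1 peak of library 1. Library 2 had none in these islands. Within islands of at least 4 nucleosomes, the stretch nearer the middle than the edge held 57.4% of HNF4A centres (56.3 to 58.4), 59.4% of library 1 centres (57.6 to 61.1) and 61.3% of library 2 centres (57.6 to 64.9). Islands begin and end on a nucleosome by definition, and no expected share allowing for this was computed. These shares thus cannot show a lean of either factor to the middle.

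Across the 7 measures that can be set as HNF4A minus CDX2, HNF4A lay on the same side of both CDX2 libraries in 7. It lay farther from the nearer CDX2 library than the CDX2 libraries lay from each other in 3: the flanked share, the clustered share and the share of islands holding a peak. The measures are not independent, since every flanked peak is also marked. For the marked share, nucleosomes per peak, nucleosome score and the centre dip, the CDX2 libraries differed from each other by more than library 1 or 2, whichever was nearer, differed from HNF4A. Which measures met this yardstick changed with list length and with peak width. With 7441 peaks in each list, nucleosomes per peak, nucleosome score and the centre dip met it as well (1.61 against 1.57, 28.7 against 15.7 and -0.178 against 0.147), and the island share did not. That length keeps all of library 2 but only the highest-scoring peaks of the other lists. With the 3000 highest peaks, the flanked share and nucleosome score met it and the other measures did not, the clustered share missing it with 7.47 points against 8.83. The marked share met it at none of these lengths, but met it in both width classes, which are not matched for peak score. In peaks of 300 to 500 bp, 6 of the 7 measures met it, all but the centre dip. In peaks of 300 bp or less 4 did: the marked share, nucleosomes per peak, the flanked share and the island share.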

How the data were processed

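Factor peaks and H3K4me2 nucleosomes were listed per library in the deposited files; the submitters' processing notes name build mm9, and positions are counted from 1. The peak score is the authors' deposited value, and peak names carry the word MACS, a peak caller. The nucleosome score is 10 times the −log10 of a p-value, per the file headers. The sources used here do not give the aligner, the caller's settings or the control, and input DNA was not analysed here. Fixed villi for factor ChIP and unfixed villi treated with micrococcal nuclease are described per the labels' protocols, without saying for which libraries. Reads per library are unknown, and list length, peak width and score move with depth and with the caller's settings.

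Peak centres are midpoints. Marked means a nucleosome centre within 1 kb, flanked means nucleosome centres on both sides at 75 to 500 bp and none nearer, overlap is at least 1 bp, runs join centres at most 10 kb apart and islands join nucleosome centres at most 500 bp apart. The difference between factors is HNF4A minus the mean of the CDX2 libraries. Named sites were the 3 highest peaks and 2 highest unmarked peaks of each list, the 5 highest HNF4A peaks with both CDX2 libraries, the 3 highest of those with both CDX2 centres over 250 bp off, the 2 longest runs of each list and the 3 largest islands. Alternatives were each CDX2 library alone, other list lengths, windows, distances and nucleosome scores, and, chosen after seeing the data, classes of peak width and marked peaks only. The measures and site rules were chosen with earlier results of these data known. Gene names, sequences and motifs were not used, for want of an mm9 genome here.

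Computation was in Python 3.11.15 with numpy 2.4.6, pandas 2.3.3 and SciPy 1.17.1, with plots by matplotlib 3.10.9. The procedures were tested on simulated lists, where 12 of 12 known quantities were recovered.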

Additional observations from a re-analysis of the deposited data

How the results depend on the processing

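For 9 measures, 75 alternatives were run. The direction turned in 1: the centre dip, HNF4A minus CDX2, was -0.133 as reported and 0.0117 in peaks of 300 bp or less, where library 1 had 199 peaks. Another 20 moved the value by more than the standard deviation of the values from the CDX2 libraries, and 54 did not. This limit is smaller than the distance between the CDX2 libraries that served as the yardstick above. The dip was -0.260 in peaks of 300 to 500 bp. The median nucleosome score difference was 26.9, and 50.3 with the 3000 highest peaks. The flanked difference was 19.1 points, 32.6 at equal list length, 30.95 with the 3000 highest peaks and 30.9 in peaks of 300 to 500 bp. The offset was 82.5 bp, and 35.75 bp with both peaks of 300 bp or less (8 and 164 pairs). The clustered difference was 23.2 points, 36.96 as deposited, 11.9 with the 3000 highest peaks, 1.51 and 6.31 in peaks of 300 bp or less and of 300 to 500 bp, and 6.44 in marked peaks. Chromosome dissimilarity was 6.27%, 7.04% at equal length, 7.85% with the 3000 highest peaks, 9.73% and 7.62% in the width classes and 5.45% in marked peaks. The island difference was 10.1 points, 3.54 at equal length, 1.34 with the 3000 highest peaks and 4.58 and 6.09 in the width classes. The number of peaks changes in all of these alternatives, more entering as deposited and fewer in the others; the cause of the changes was not tested.

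With each CDX2 library alone, the marked difference ran from 19.4 to 49.7 points, nucleosomes per peak from 0.923 to 2.24, nucleosome score from 13.6 to 40.2, the dip from -0.222 to -0.0439, the flanked share from 13.5 to 24.6 points, the offset from 62 to 103 bp, the clustered share from 15.7 to 30.7 points, dissimilarity from 5.91% to 6.63% and the island share from 7.85 to 12.3 points. HNF4A had 1 library and could not be left out. No paired analysis was possible because the groups share no replicate numbers in the labels. Unknown depth limits every list: a site without a peak or nucleosome was not called there, which does not show that it was empty.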
